A study of Rattus norvegicus with 18 samples.

Results

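The comparison described here sets brain cortex of rats at 6 h after occlusion of the middle cerebral artery (MCAO) against cortex at 2 h, both from animals given saline, and so follows the gene response of the lesion over those hours without active treatment. Its members are the 6 arrays labelled as ischemia with saline, 3 at each time, of 18 arrays in the series. Every array carries RNA of male Crl:CD(SD)BR rats, with no genetic change named in the labels. The other 12 arrays hold sham-operated rats, labelled as given no treatment, and rats with MCAO given erythropoietin (EPO), 3 of each at 2 h and 3 at 6 h. Sham rats thus differ from the saline group both in the occlusion and in the saline. RNA of each sample was labelled with Cy3 and hybridized to its own 1-colour array. The labels do not say whether the artery was reopened or which side and part of the cortex was taken, and give neither age nor EPO dose. They also do not say that the replicates of a group are separate animals. The p-values thus measure the spread between samples within groups, pooled over all 18 arrays.

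Occlusion of the middle cerebral artery cuts the blood supply of much of the lateral cortex. Neurons at the edge of such a lesion depolarize in waves and switch on immediate-early genes, whose transcripts are made and lost quickly. Stressed and dying cells induce chaperones and antioxidant enzymes, and microglia and blood vessels release chemokines and display adhesion molecules that draw leukocytes from the blood.

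Each value is a log2 signal from which the 75th percentile of its array was subtracted. A change is the mean at 6 h minus the mean at 2 h, with n = 3 arrays per group. It is given ± the standard error of the fit, whose spread is estimated over all 18 arrays. Adjusted p-values are those of limma with Benjamini-Hochberg adjustment over the 28647 probes tested, and "rose", "fell" and "called" are used at an adjusted p under 0.05. A gene is represented by its probe of highest mean signal, which gave 12436 genes. The number of arrays limits the precision, and the median standard error of a change was 0.13. Between 61.5% and 80.6% of probes were well above background on the 6 saline arrays. Against the amount of the spiked-in viral transcripts, both on a log scale, signal rose with a slope of 0.914 to 0.941 on 6 of the 18 arrays and 0.788 to 0.866 on the other 12. The steeper class held 1 of the 3 saline arrays at 2 h (replicate 1) and 2 of the 3 at 6 h (replicates 1 and 3), so the classes are not balanced between the times. The first principal component, the axis of largest variance among the tested probes, held 74.8% of the variance. On it the 6 steep arrays lay at 83.8 to 113 and the other 12 at -120 to -19.8. Of the saline arrays, only 6 h replicate 3 was scanned on the later of 2 days. Of 5 slides, only slide 2 held both times, with 1 array each.

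Between 2 h and 6 h, 2064 probes changed, 7.20% of those tested. Of these, 1067 rose (3.72%) and 997 fell (3.48%), and 5676 had an unadjusted p under 0.05. The rises were larger than the falls, with 166 probes at least 2-fold higher and 56 at least 2-fold lower. By gene, 1097 changed (8.82%), of which 598 rose (4.81%) and 499 fell (4.01%), and the median change over all genes was -0.07. The balance between higher and lower depends on the scaling between arrays. It was 1100 to 658 with quantile normalization, 902 to 187 on the deposited values without scaling, 833 to 381 after centring on the median and 944 to 617 with another background correction. All 2064 called probes had the same sign within the steep arrays, within the others and within slide 2, although these arrays were also part of the fit. The values at the 2 times did not overlap for 99.7% of called probes and for 25.8% of all probes tested, so a lack of overlap does not set a called gene apart. Leaving out 1 array lowered the count to between 1098 (without 2 h replicate 1) and 1479 (without 2 h replicate 2), with 1226, 1308 and 1163 without 6 h replicates 1, 2 and 3 and 1300 without 2 h replicate 3. A fit without the steep arrays, which leaves 1 array at 6 h, called 25, and a fit of the 6 saline arrays alone called 381.

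**Figure D1:**
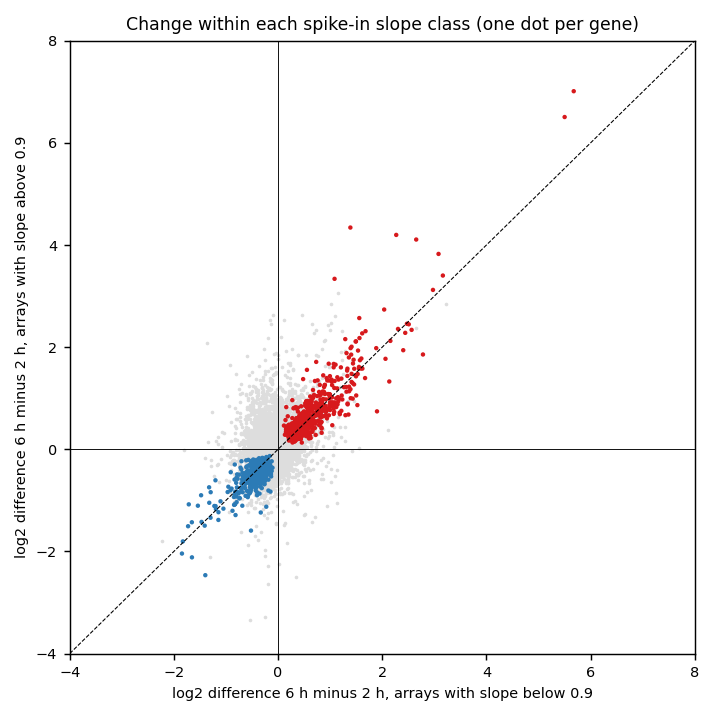
Log2 change from 2 h to 6 h of each of the 12436 genes in saline-treated ischemia, computed among the arrays with a spike-in slope below 0.9 (horizontal axis, 2 arrays at 2 h and 1 at 6 h) and among those above 0.9 (vertical axis, 1 array at 2 h and 2 at 6 h). Red genes rose and blue genes fell in the fit of all arrays, grey genes did not pass, and the dashed line marks equal change; called genes lie in the 2 quadrants of equal sign because the same arrays entered the fit.

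A few genes by which vessels catch leukocytes rose. Sele, the E-selectin that activated endothelium displays to slow passing leukocytes, read -6.78, -5.55 and -6.38 at 2 h, when no array was well above background, and -0.18, -0.46 and -0.37 at 6 h. The groups lay far apart, and the difference in means was 5.90 ± 0.51 (adjusted p = 3.3e-05), at least 43.9-fold against the background limit of the 2 h arrays. Such bounds set the brighter group's mean against, on each dimmer array, either the lowest signal that counted as well above background or the probe's own signal, whichever is higher. They depend on the background correction and are not lower limits under another one. With normexp and an offset of 50, which compresses dim signals, the change of Sele was 3.53, under its bound. Icam1, the ligand by which leukocytes attach firmly, read -0.09, -0.09 and -0.11 at 2 h and 1.19, 1.31 and 1.58 at 6 h. It was 2.75-fold higher with no overlap (1.46 ± 0.14, adjusted p = 7.7e-05). Cd44, a hyaluronan receptor of many cells, was 2.99-fold higher (1.58 ± 0.14), although the gene's other probe had the opposite sign. Selplg, the selectin ligand carried by leukocytes and microglia, fell by 1.01 on the log2 scale, from -2.04, -2.01 and -1.98 to -2.95, -2.83 and -3.28 (adjusted p = 0.0095, but 0.075 without scaling between arrays, 0.063 with normexp and 0.087 with slide as a fixed block). Of 17 adhesion genes tested, 3 rose and 1 fell, with a median of 0.29. In such bulk samples, a change in the number of cells of a type and a change in RNA per cell cannot be told apart.

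Of 22 chemokine genes, 8 rose and 1 fell. Ccl2, which draws monocytes, read -1.11, -0.84 and -1.08 at 2 h and 1.70, 2.01 and 2.31 at 6 h, 8.12-fold higher (3.02 ± 0.35, adjusted p = 0.00025). Cxcl10, an interferon-induced chemokine for T cells, rose from -3.36, -3.22 and -3.38 to -1.22, -0.86 and -0.94 (4.98-fold, 2.31 ± 0.24). Both were named among the largest rises, which were taken only from genes without overlap, so their lack of overlap was given by that choice. Ccl12, a further monocyte chemokine, was not well above background on any 2 h array (-6.79, -4.74 and -5.03) and read -2.81, -2.23 and -2.56 at 6 h. Its mean rose by 2.99 ± 0.51, at least 6.23-fold, and Ccr1, a receptor of several CC chemokines that was likewise dim on all 3 arrays at 2 h (mean -5.65), by 2.43 ± 0.39 to a mean of -3.23, at least 4.87-fold. With normexp these changes were 1.45 and 0.97, both called and both under these bounds. Ccl20 had a large mean rise with a wide error (3.04 ± 0.73, adjusted p = 0.023; 1 of 3 arrays at 2 h above background). Its adjusted p was 0.055 to 0.10 without any array but 2 h replicate 2, and with normexp its change was 1.34. Ccl7 rose by 1.93 ± 0.40 (adjusted p = 0.051 without 2 h replicate 1 and 0.064 with slide as a fixed block, which left Ccl20 at 0.061) and Ccl3 by 1.56 ± 0.36 (0.058 and 0.082 without 6 h replicates 2 and 3, 0.065 and 0.054 without 2 h replicates 1 and 3). In contrast, the neutrophil chemokine Cxcl1 was already at -0.34, 0.01 and -0.09 at 2 h and read 0.32, 0.01 and 0.53 at 6 h, with overlapping groups (0.43 ± 0.33, adjusted p = 0.54), while all 3 sham arrays at 2 h were not well above background. The 1 fall was that of the neuronal chemokine Cx3cl1 (-0.27 ± 0.07; adjusted p = 0.070 to 0.095 without any array but 2 h replicate 2). There were 4 rises without 2 h replicate 1 or 6 h replicate 3 and 5 without 2 h replicate 3 or 6 h replicate 2. The list median was 0.46 and ran from -0.01 to 0.76 over the alternative analyses, so its sign depends on them.

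Cytokine genes likewise divided into those that rose and those that did not pass. Of 16 tested, 7 rose and 0 fell (4 rises without 2 h replicate 1 or 6 h replicate 2; median 0.53). Il1rn, the antagonist of the interleukin-1 receptor, read -2.81, -2.57 and -2.75 at 2 h and -1.65, -1.25 and -1.32 at 6 h (1.30 ± 0.15, adjusted p = 0.00022), although the gene's other probe had the opposite sign. Csf1, the growth factor of macrophages and microglia, rose from 0.05, 0.16 and 0.08 to 0.96, 0.96 and 1.04 (0.89 ± 0.08, adjusted p = 3.3e-05). Neither overlapped between times. Il1b rose by 1.31 ± 0.29 from -1.79, -1.62 and -1.79 to -0.75, -0.24 and -0.28, but its adjusted p of 0.015 became 0.052 to 0.061 without 2 h replicate 1 or 3 or 6 h replicate 2 or 3. Tnf read -3.80, -3.49 and -3.57 at 2 h and -3.66, -2.95 and -2.99 at 6 h, and Il6 -5.31, -4.0 and -4.38 against -4.04, -3.40 and -3.92. Neither passed (adjusted p = 0.52 and 0.43), and their groups overlapped. Of 13 genes for NF-kB subunits and feedback, 4 rose and 0 fell (2 rises without 2 h replicate 1 or 6 h replicate 3), with the inhibitor Tnip2 at 0.79 ± 0.08 and the subunit Nfkb1 at 0.37 ± 0.07 (adjusted p = 0.056 with slide as a fixed block).

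**Figure D2:**
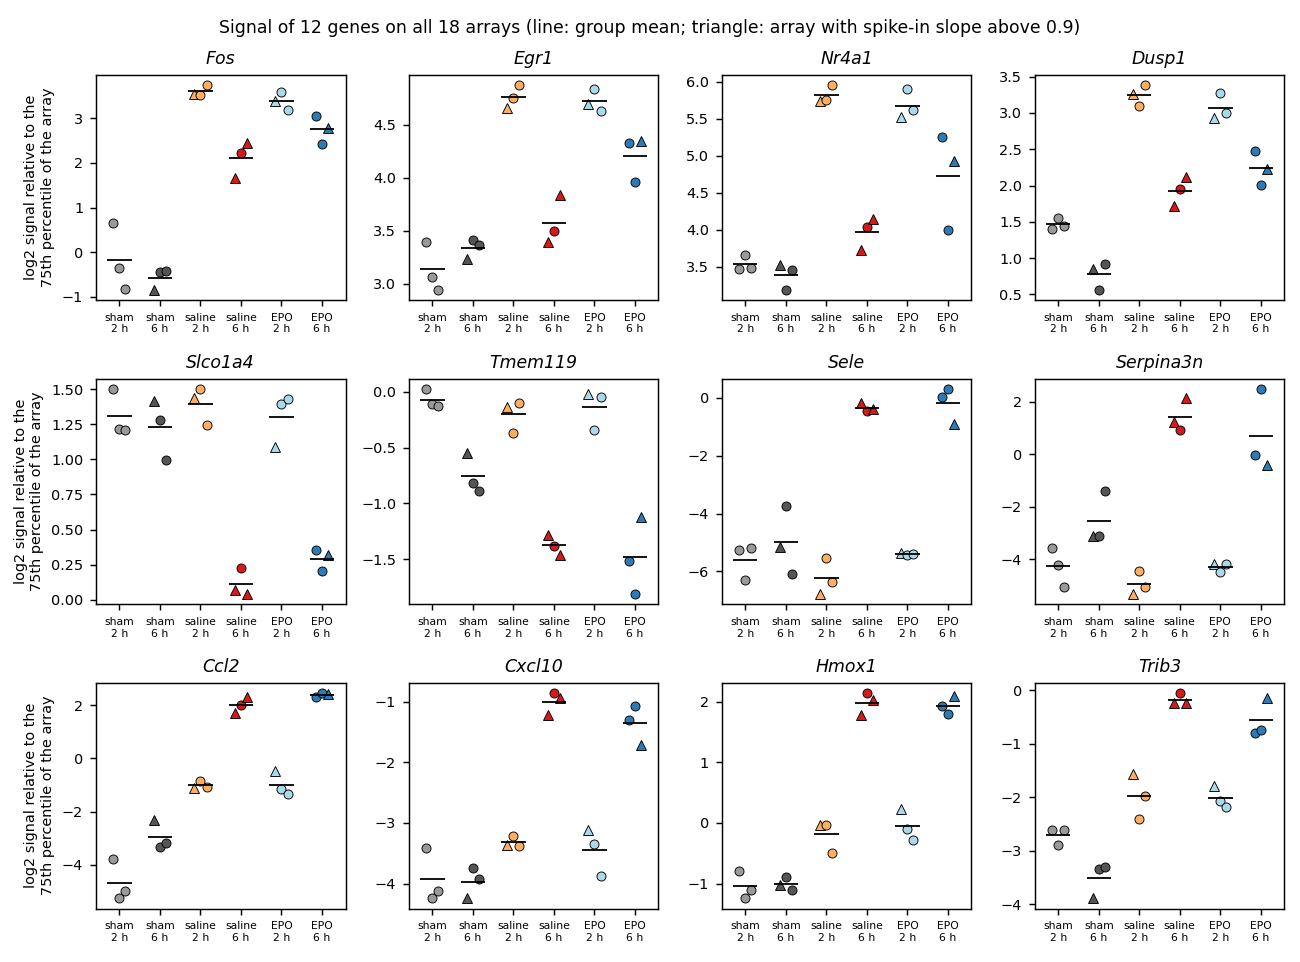
Log2 signal minus the array's 75th percentile (vertical axes) for 12 genes on all 18 arrays, by group (horizontal axes); lines are group means, and triangles mark the arrays with a spike-in slope above 0.9. Fos, Egr1, Nr4a1 and Dusp1 were higher at 2 h than at 6 h in saline-treated ischemia, Slco1a4 and Tmem119 fell to levels below their 2 h arrays, and the last 6 genes were higher on all 3 arrays at 6 h.

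Interferon response genes rose in 13 of 27 cases and none fell, with a median of 0.53. Gbp2, an interferon-induced GTPase, rose from -0.18, -0.08 and -0.11 to 2.26, 2.21 and 2.09 (4.95-fold, 2.31 ± 0.12, adjusted p = 4.8e-07). The transcription factor Irf1 rose by 0.79 ± 0.14 and the ubiquitin-like Isg15 by 0.87 ± 0.17. Many of the smaller rises were close to the threshold: 6, 8 and 5 members passed without 2 h replicates 1, 2 and 3, and 8, 4 and 6 without 6 h replicates 1, 2 and 3. In the acute-phase and STAT3 list, 10 of 23 rose and 1 fell (median 0.64), with 4, 6 and 5 rises without 2 h replicates 1, 2 and 3 and 5, 6 and 6 without 6 h replicates 1, 2 and 3. Serpina3n, a secreted protease inhibitor of reactive astrocytes and liver, read -5.32, -4.45 and -5.06 at 2 h, when 1 of 3 arrays was above background, and 1.25, 0.92 and 2.13 at 6 h. The difference in means was 6.38 ± 0.68 (adjusted p = 0.00013), a size that rests on dim values at 2 h. Stat3 itself, the transcription factor of this response, was 1.67-fold higher (0.74 ± 0.10) and the copper carrier Cp 2.14-fold higher (1.1 ± 0.17). The one fall, Socs2, a feedback inhibitor of growth hormone signalling, was at -0.82 ± 0.22 (adjusted p = 0.038; 0.059 to 0.16 without any array but 6 h replicate 2).

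Matrix and plasminogen genes had a median of 0.68, with 11 of 25 higher and 0 lower (7 higher without 2 h replicate 3). The proteoglycan Sdc1 was 3.81-fold higher, from -0.50, -0.49 and -0.40 to 1.35, 1.44 and 1.60 (1.93 ± 0.10, adjusted p = 3.9e-07). Timp1, an inhibitor of metalloproteinases, rose from 1.89, 1.80 and 1.91 to 3.41, 3.45 and 3.54 (3.02-fold, 1.60 ± 0.19). The times were clearly apart for both. The gelatinase Mmp9 rose by 1.28 ± 0.14, the collagen cross-linker Lox by 1.09 ± 0.12 and the urokinase Plau by 1.27 ± 0.23. Spp1 (osteopontin) varied widely at 6 h, with -0.10, 1.81 and 3.62 after -0.69, -0.36 and -1.04 at 2 h. Its rise of 2.47 ± 0.68 (adjusted p = 0.043) was past the test without 6 h replicate 1 but at 0.077 to 0.14 without any other array, and at 0.19 with slide as a fixed block. Serpinb2, an inhibitor of plasminogen activators, was similar (2.93 ± 0.81, adjusted p = 0.045; 0.071 to 0.16 without any array but 6 h replicate 2), with 1 of 3 arrays at 2 h above background and a change of 1.68 with normexp.

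Several of the largest rises were secreted proteins or membrane proteins outside these lists. Slpi, a protease inhibitor of mucosa and leukocytes, read -3.14, -2.99 and -3.38 at 2 h and 0.58, -0.02 and -0.06 at 6 h (10.1-fold, 3.34 ± 0.34, adjusted p = 9.4e-05). Kng1 is a precursor of kinins with near-identical relatives in the rat genome that the probe may not separate. It rose by 3.16 ± 0.43 from a mean of -6.07, at least 6.88-fold since no array at 2 h was well above background. With normexp, the change of Kng1 was 1.32, under that bound. Fcnb, a lectin of the complement system, rose by 2.31 ± 0.30. Atp8b1, a phospholipid flippase, was dim on all arrays at 2 h and above background on 2 of 3 at 6 h, and its mean rose from -6.53 to -4.08 (2.46 ± 0.36, at least 3.96-fold). With normexp, its change was 0.83 (adjusted p = 0.044), under that bound. In the prostaglandin list, 2 of 14 genes rose and 0 fell, with the synthase Ptges 2.98-fold higher (1.57 ± 0.27) and the phospholipase Pla2g4a at 0.55 ± 0.10 (adjusted p = 0.059 with quantile normalization), whereas Ptgs2, chosen for mention after its values were seen, read 0.62, 0.70 and 1.12 at 2 h and 1.24, 0.85 and 1.01 at 6 h (0.22 ± 0.24, adjusted p = 0.68).

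Some markers of neutrophils, cells that enter ischemic cortex from the blood, moved with these inflammatory genes. Of 7 tested, 3 rose (S100a8 at 1.77 ± 0.39, Lcn2 at 1.59 ± 0.40 and Mmp9) and 0 fell. Mmp9 is also counted among the matrix genes and Lcn2 in the acute-phase and glucocorticoid lists. Called or not, 5 of the 7 changes were positive and 2 negative. The list median was 1.20, and 1 rise passed without 2 h or 6 h replicate 1. S100a8 had an adjusted p of 0.069 and 0.059 without 2 h and 6 h replicate 1, and Lcn2 of 0.077 to 0.13 without 2 h replicates 1 and 3 or 6 h replicates 1 and 2 and of 0.067 without scaling. The summed linear signal of the 7 markers, in units of the array's 75th percentile, was 0.627 to 0.938 at 2 h and 1.54 to 1.88 at 6 h, against 0.577 to 1.04 and 0.545 to 0.896 in sham. The defining markers Mpo, Ngp, Cxcr2, Fpr1 and Mmp8 were not well above background throughout any of the 6 groups. The part of these cells in the rises above was not tested.

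Some cell stress genes rose. Of 21 heat shock proteins and co-chaperones, 8 rose and 0 fell (6 or 7 without 1 array), with a median of 0.19. Hspb1, the small chaperone HSP27, read 0.37, 0.29 and -0.13 at 2 h and 2.01, 2.14 and 2.27 at 6 h (3.91-fold, 1.97 ± 0.13, adjusted p = 3.0e-06). Hspa1a, the inducible HSP70, whose near-identical copy Hspa1b the probe may also detect, went from 5.0, 4.78 and 4.36 to 6.03, 6.07 and 6.08 (2.54-fold, 1.35 ± 0.17, adjusted p = 0.00036). Neither overlapped between the times, and sham arrays read -0.95 to -0.53 for Hspa1a. The lens and glial chaperone Cryab rose by 0.76 ± 0.09 and the co-chaperone Hsph1 by 0.67 ± 0.09. In the unfolded protein and integrated stress response, 10 of 26 rose and 0 fell (6 rises without 2 h replicate 1 or 6 h replicate 3; median 0.19). Trib3, a pseudokinase induced by the integrated stress response, was 3.50-fold higher, from -1.56, -2.40 and -1.99 to -0.24, -0.06 and -0.23 (1.81 ± 0.22, adjusted p = 0.00035). Its companions Chac1 (0.90 ± 0.14), Creld2 (0.61 ± 0.10) and Ddit3, the transcription factor CHOP (0.45 ± 0.08), rose less.

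Antioxidant, hypoxia and cell death genes contained a few strong movers among many that did not pass. Hmox1, the heme oxygenase, read -0.03, -0.03 and -0.50 at 2 h and 1.78, 2.14 and 2.03 at 6 h (4.50-fold, 2.17 ± 0.17, adjusted p = 1.3e-05). With it, 6 of 23 genes of the Nrf2 and metallothionein list rose and 0 fell (4 to 6 without 1 array; median 0.15), among them the sulfiredoxin Srxn1 (1.40 ± 0.14, with the gene's other probe of opposite sign), Mt1 (0.93 ± 0.14, likewise) and Nfe2l2, the Nrf2 gene itself (0.63 ± 0.07). Of 34 hypoxia genes, 7 rose and 0 fell (4 rises without 2 h replicate 1 or 6 h replicate 3; median 0.08). The vasodilator peptide Adm was 2.31-fold higher (1.21 ± 0.16), the lipase inhibitor Angptl4 2.16-fold (1.11 ± 0.16) and the lactate exporter Slc16a3 1.90-fold (0.93 ± 0.18). In the apoptosis and p53 list, 10 of 30 rose and 2 fell, with 8 or 9 rises without 1 array. Rises included the death receptors Fas (0.92 ± 0.10) and Tnfrsf1a (0.96 ± 0.11), the growth arrest gene Gadd45a (0.87 ± 0.09) and the survival factor Mcl1 (0.64 ± 0.07, with 1 of its 3 probes of opposite sign). The 2 falls were Btg2, an antiproliferative early gene (-1.60 ± 0.27), and Gadd45g (-0.59 ± 0.17; adjusted p = 0.0497, and 0.063 to 0.20 without any array but 6 h replicate 3). Among 24 growth factors, 4 rose and 1 fell. Angpt2, which loosens vessel walls, was 2.76-fold higher (1.47 ± 0.14), and the lymphatic growth factor Vegfc was at -0.34 ± 0.09 (adjusted p = 0.081 to 0.11 without 2 h replicate 1 or 3 or 6 h replicate 1 or 3).

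**Figure D3:**
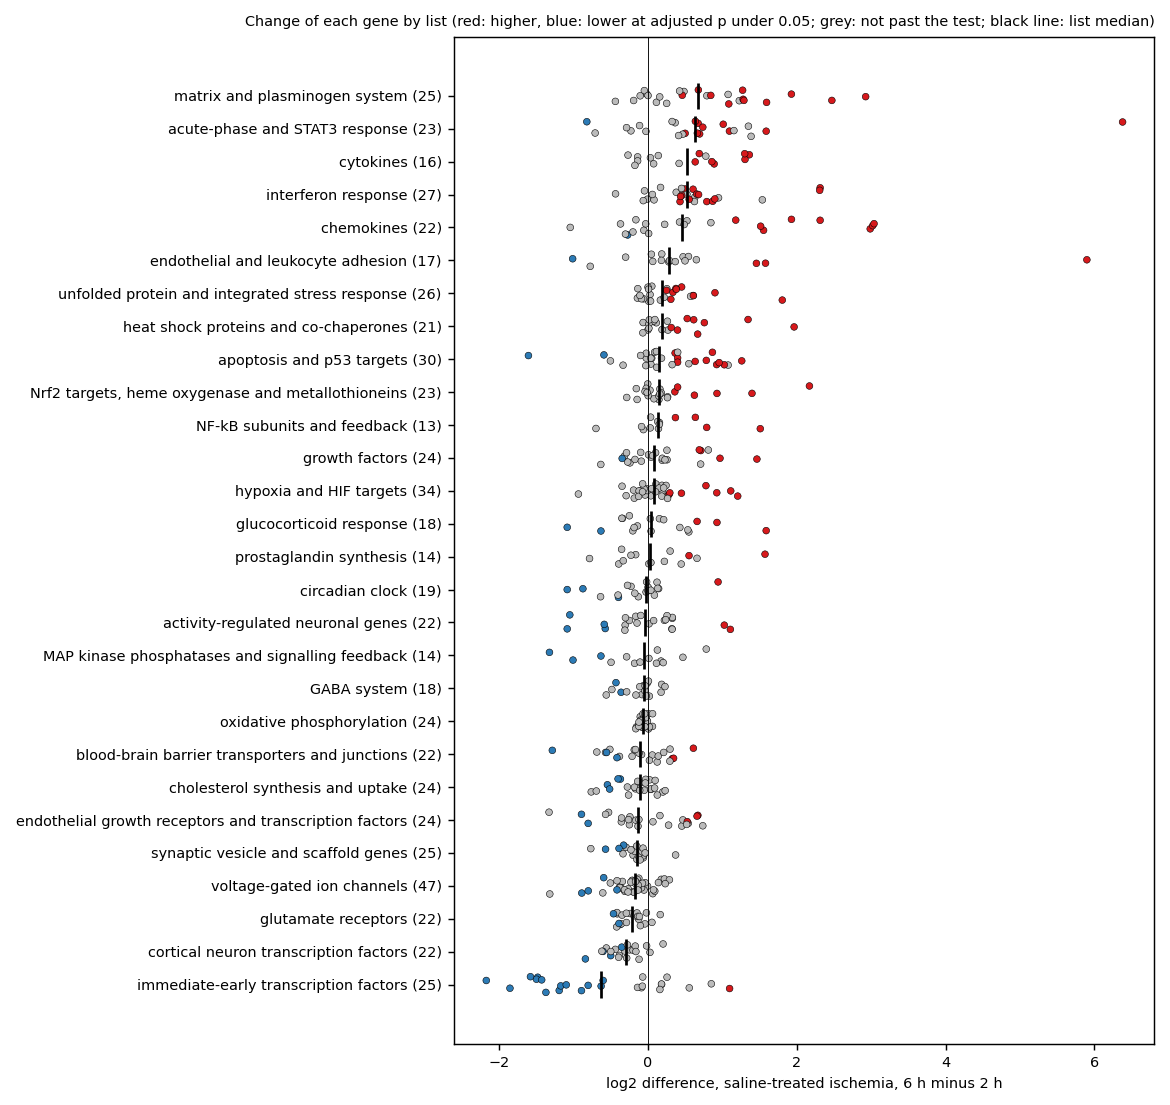
Log2 change from 2 h to 6 h in saline-treated ischemia (horizontal axis) of every tested gene of the 28 gene lists (vertical axis, number of genes in brackets), ordered by list median (black line). Red genes rose, blue genes fell and grey genes did not pass; rises gather in the matrix, acute-phase, cytokine, interferon and chemokine lists at the top, and the immediate-early transcription factors at the bottom have a median of -0.63.

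Many immediate-early transcription factors fell. Of 25 tested, 14 fell and 1 rose, with a median of -0.63 against -0.07 over all genes; 10 to 14 fell without 1 array, and the median was -0.56 within the steep arrays and -0.68 within the others. Nr4a1, an orphan nuclear receptor, read 5.74, 5.76 and 5.96 at 2 h and 3.72, 4.03 and 4.15 at 6 h (3.61-fold lower, -1.85 ± 0.24, adjusted p = 0.00051). Its relative Nr4a3 went from 1.96, 1.88 and 2.02 to 0.28, 0.22 and 0.63 (-1.58 ± 0.19), and Nr4a2 from 0.04, 0.11 and 0.26 to -1.15, -0.92 and -0.81 (-1.10 ± 0.09, adjusted p = 2.3e-05). The times did not overlap for any of the 3. For Nr4a1 and Nr4a3, no overlap was a condition of being named among the largest falls. The sham arrays read 3.19 to 3.65 for Nr4a1, -0.00 to 0.89 for Nr4a3 and -1.12 to -0.91 for Nr4a2, ranges that held or lay close to those at 6 h. Egr1, a zinc-finger factor, fell from 4.66, 4.75 and 4.88 to 3.39, 3.49 and 3.84 (-1.19 ± 0.14, adjusted p = 0.00028), Egr2 by 1.48 ± 0.30 and Egr4 by 1.17 ± 0.21. Of the AP-1 genes, Junb fell by 1.43 ± 0.22 and Fosl2 by 1.37 ± 0.17. Fos itself read 3.55, 3.53 and 3.75 at 2 h and 1.65, 2.23 and 2.45 at 6 h, a fall of 1.5 ± 0.31 (adjusted p = 0.011, but 0.054 without 6 h replicate 1), while sham arrays read -0.84 to 0.66. Npas4, which neuronal activity switches on, fell by 2.17 ± 0.50 (adjusted p = 0.018; 0.075 without 2 h replicate 3 and 0.084 without 6 h replicate 1), from -0.02, 0.31 and 0.82 to -2.65, -1.28 and -1.46. By contrast Myc, a growth regulator of the same list, rose from -0.59, -0.74 and -0.66 to 0.29, 0.45 and 0.57 (1.1 ± 0.10, adjusted p = 6.2e-05). Atf3, chosen for mention after its values were seen, did not pass (2.31, 2.17 and 2.40 against 2.35, 2.48 and 2.60, adjusted p = 0.81).

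Among feedback genes of growth factor signalling, 3 fell. Dusp1, a phosphatase that switches off MAP kinases, read 3.26, 3.10 and 3.39 at 2 h and 1.71, 1.95 and 2.12 at 6 h (2.50-fold lower, -1.32 ± 0.14, adjusted p = 0.00014). Dusp6, the phosphatase for ERK, fell by 1.01 ± 0.16 and Errfi1, a receptor feedback inhibitor, by 0.63 ± 0.09 (adjusted p = 0.0502 without scaling between arrays). Of 14 tested, 0 rose; the list median of -0.05 changed sign in at least 1 alternative analysis. Other genes regulated by neuronal activity were mixed, with 2 of 22 higher and 4 lower (2 lower without 2 h replicate 3 or 6 h replicate 1 or 2). Arc, a regulator of synaptic strength, read 4.99, 5.30 and 5.33 at 2 h and 4.12, 3.99 and 4.36 at 6 h, while sham arrays read 2.25 to 2.81. Its fall of 1.05 ± 0.24 had an adjusted p of 0.017, but 0.057 to 0.066 without 2 h replicate 2 or 3 or 6 h replicate 1 or 2 and 0.091 without scaling between arrays. With slide as a fixed block, the adjusted p was 0.11 for Arc, 0.091 for Fos, 0.12 for Npas4, 0.073 for Egr2 and 0.10 for Nptx2. Nptx2, a pentraxin of excitatory synapses, rose by 1.11 ± 0.24 (0.063 and 0.065 without 2 h replicate 1 and 6 h replicate 3) and Gadd45b by 1.03 ± 0.18. The neurotrophin Bdnf was at 0.40, 0.37 and 0.95 and then at 0.88, 0.59 and 1.25, with overlapping groups (0.33 ± 0.20, adjusted p = 0.41).

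To show the promoters of genes that moved in opposite directions, the reference sequence of 250 bases before to 50 bases after the transcription start is given for 4 genes from RefSeq (assembly GRCr8), 5′ to 3′ on the strand of the gene. Capitals mark a motif searched on both strands, chosen from the regulators known for each gene. For Cxcl10 it was an NF-kB motif, a loose 10-base pattern with fixed ends and a middle open to any base. For Hspb1 it was a heat shock element (GAANNTTC) and for Dusp1 a cAMP response element (TGACGTCA). For Egr1 it was a serum response element, searched by its name. Hits that overlap or lie next to each other run together, and hits of the other motifs are left in lower case.
Cxcl10 (rose; chr14:15988816-15989115, plus strand): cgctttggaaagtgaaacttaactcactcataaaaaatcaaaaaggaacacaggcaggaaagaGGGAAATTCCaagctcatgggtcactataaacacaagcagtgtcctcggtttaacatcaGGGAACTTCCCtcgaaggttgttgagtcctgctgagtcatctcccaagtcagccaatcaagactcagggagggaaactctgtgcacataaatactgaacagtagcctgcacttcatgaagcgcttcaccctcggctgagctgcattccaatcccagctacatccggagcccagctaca
Hspb1 (rose; chr12:26432252-26432551, minus strand): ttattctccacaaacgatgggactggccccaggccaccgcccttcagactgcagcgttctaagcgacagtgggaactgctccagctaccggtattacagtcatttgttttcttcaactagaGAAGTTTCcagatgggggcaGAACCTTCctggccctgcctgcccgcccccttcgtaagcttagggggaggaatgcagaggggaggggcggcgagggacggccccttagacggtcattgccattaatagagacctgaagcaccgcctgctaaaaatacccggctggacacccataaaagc
Dusp1 (fell; chr10:17184603-17184902, plus strand): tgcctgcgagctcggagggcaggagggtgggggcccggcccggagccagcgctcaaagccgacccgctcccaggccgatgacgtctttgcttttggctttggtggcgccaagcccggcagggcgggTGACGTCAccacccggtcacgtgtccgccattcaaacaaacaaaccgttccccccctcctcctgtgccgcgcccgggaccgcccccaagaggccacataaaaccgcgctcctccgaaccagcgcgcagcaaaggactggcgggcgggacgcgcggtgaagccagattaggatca
Egr1 (fell; chr18:26736828-26737127, plus strand): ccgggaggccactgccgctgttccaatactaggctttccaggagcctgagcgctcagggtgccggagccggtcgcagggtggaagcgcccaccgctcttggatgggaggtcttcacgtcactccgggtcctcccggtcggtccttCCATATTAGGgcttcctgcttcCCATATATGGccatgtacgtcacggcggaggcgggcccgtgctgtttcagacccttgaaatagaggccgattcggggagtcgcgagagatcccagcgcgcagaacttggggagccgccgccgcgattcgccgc

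The Cxcl10 window holds 3 hits of the NF-kB motif (1 hit, and 2 that overlap), that of Hspb1 holds 2 of the heat shock element, that of Dusp1 holds 1 cAMP response element and that of Egr1 holds 2 serum response elements. Of the 15 largest rises and the 15 largest falls, 12 each had a promoter in the table; Hspb1 is not among these genes. The NF-kB motif was in 4 of the 12 rises and 4 of the 12 falls and in 19.3% of all 33469 promoters of this length. The cAMP response element was in 0 rises and 2 falls (Btg2 and Dusp1) and in 1.83% of all promoters, and the serum response element in 0 rises and 2 falls (Egr1 and Egr2) and in 1.64%. Of the other motifs, AP-1 (TGACTCA; 4.63% of all promoters) was in 2 rises and 0 falls, the heat shock element (8.59%) in 1 and 0, a STAT motif (TTCNNNGAA; 8.87%) in 2 and 0, and a TATA box (TATAAA; 14.2%) in 5 and 1. These are descriptions of letters in 1 window and were not tested.

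A minority of neuronal genes fell, by small amounts. Of 22 glutamate receptor genes 3 fell, of 18 GABA genes 2, of 47 voltage-gated ion channels 4, of 25 synaptic vesicle and scaffold genes 3 and of 22 cortical neuron transcription factors 4, and 0 genes of these 5 lists rose. The list medians were -0.21, -0.05, -0.17, -0.15 and -0.30, against -0.07 over all genes tested, of which 4.01% fell. The median of the GABA list was thus not below that of all genes, and it changed sign in at least 1 alternative. The counts were fragile: 0 or 1 GABA gene passed without any 1 array, 1 synaptic gene without 2 h replicate 1, and 1 cortical transcription factor without 2 h replicate 1 or 3 or 6 h replicate 1 and 2 without 2 h or 6 h replicate 2. Kcnv1, a silent potassium channel subunit, fell on every array, from 2.89, 2.79 and 2.92 to 2.13, 1.96 and 2.11 (1.74-fold, -0.80 ± 0.06, adjusted p = 2.1e-05). Kcnb2, another potassium channel gene, fell by 0.89 ± 0.12 and the sodium channels Scn1a and Scn2a by 0.59 ± 0.08 and 0.41 ± 0.07. Their groups did not overlap. Gria2, the AMPA receptor subunit that limits calcium entry, fell by 0.37 ± 0.07 and the adhesion gene Nlgn1 by 0.57 ± 0.08. Neurod6, a factor of cortical excitatory neurons, read 1.27, 1.17 and 1.43 at 2 h and 0.60, 0.48 and 0.28 at 6 h (-0.84 ± 0.16, adjusted p = 0.0067, and 0.079 with slide as a fixed block). Without scaling between arrays, the adjusted p was 0.20 for both Scn2a and Gria2, 0.066 for Nlgn1 and 0.15 for Snap25, and after centring on the median 0.080 for Gria2 and 0.18 for Snap25. Among 12 general neuronal markers, 3 fell with a median of -0.11 (Snap25 at -0.33 ± 0.07), but 0 passed without 2 h replicate 1 and 1 without 2 h replicate 3 or any 6 h array, and their summed signal was 270 to 300.0 at 2 h and 246 to 250.0 at 6 h. Rbfox3, which encodes NeuN, did not pass (-0.05 ± 0.10, adjusted p = 0.81). Of 24 oxidative phosphorylation genes, 0 were called in limma, with 1 at an unadjusted p under 0.05, and the median of -0.06 changed sign in at least 1 alternative.

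Vessel and microglial genes changed in both directions. Slco1a4, an organic anion transporter of the blood-brain barrier, read 1.44, 1.5 and 1.24 at 2 h and 0.07, 0.23 and 0.04 at 6 h, 2.43-fold lower (-1.28 ± 0.13, adjusted p = 7.4e-05), while sham arrays read 0.99 to 1.5 over both times. The thyroid hormone transporter Slco1c1 fell by 0.55 ± 0.10 (adjusted p = 0.080 without scaling between arrays). Of 22 barrier genes 3 rose and 3 fell (1 rise without 2 h replicate 1 or 2 or 6 h replicate 3), among them the tight junction gene Tjp1 at 0.35 ± 0.07 (1 of whose 4 probes had the opposite sign; adjusted p = 0.056 without 6 h replicate 3). Of 24 endothelial receptor and factor genes, 3 rose and 2 fell; the falls were the flow-induced factors Klf4 (-0.89 ± 0.14) and Klf2 (-0.80 ± 0.16; adjusted p = 0.11 without scaling and 0.066 with slide as a fixed block), also counted as immediate-early factors, and 0 or 1 of the rises passed without any 1 of the 6 arrays. Adamts13, which cleaves von Willebrand factor, read -2.81, -2.85 and -3.06 at 2 h and -4.98, -4.35 and -5.57 at 6 h, when 1 of 3 arrays was above background (-2.06 ± 0.43, adjusted p = 0.010). Its adjusted p was 0.052 without 6 h replicate 3, 0.058 with quantile normalization, 0.098 with slide as a fixed block and 0.060 with normexp, where the change was -0.89. Of 17 markers of microglia and macrophages, 3 rose and 3 fell. Tmem119, a marker of resting microglia, fell from -0.14, -0.37 and -0.10 to -1.28, -1.38 and -1.46 (2.25-fold, -1.17 ± 0.15, adjusted p = 0.00052), and P2ry12, the nucleotide receptor of resting microglia, by 1.04 ± 0.21 (adjusted p = 0.092 with slide as a fixed block). Rising members were Cd14, a co-receptor for endotoxin (1.25 ± 0.18), the Fc receptor Fcgr2b (1.23 ± 0.17) and the scavenger receptor Cd163 (0.74 ± 0.17; adjusted p = 0.052 to 0.086 without 2 h replicate 1 or 2 or 6 h replicate 1 or 3). The summed signal of the list was 56.7 to 60.0 at 2 h and 56.2 to 61.8 at 6 h. Prom1 (prominin), a membrane protein of progenitors and some epithelia, fell by 1.19 ± 0.17, and Abra, an actin-binding protein, by 1.87 ± 0.34, from -0.03, -1.05 and 0.43 to -1.92, -1.96 and -2.38 (adjusted p = 0.054 with slide as a fixed block).

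The remaining lists and cell types held few calls. Among 19 clock genes Per1 fell by 1.08 ± 0.13 and Nr1d1 by 0.87 ± 0.10, both repressors of the clock, Bmal1 was at -0.39 ± 0.09 (0.072 without 2 h replicate 2 0.082 without 6 h replicate 1, 0.36 without scaling and 0.051 with quantile normalization), and Cry1 rose by 0.94 ± 0.11. Of 18 glucocorticoid-induced genes, 3 rose and 2 fell (1 rise without 2 h or 6 h replicate 1), and of 24 cholesterol genes, 4 fell and 0 rose (2 falls without 2 h replicate 3 or 6 h replicate 1 or 2), with Idi1 at -0.51 ± 0.08. Of the other cell types, markers of interneurons (10 tested), meninges (8), lymphocytes (7), red cells (3) and choroid plexus (6) gave 0 calls in limma. Of these, 1 interneuron and 1 meningeal marker had an unadjusted p under 0.05, and 0 of the lymphocyte, red cell and choroid plexus markers did. Striatal neurons (11 tested), astrocytes (11), oligodendrocytes (12) and mural cells (9) had 1 rise each (Ppp1r1b, Sox9, Sox10 and Des, the last at 1.21 ± 0.15). Over all genes 8.82% were called and 4.81% rose, so in lists this short neither 0 nor 1 call sets a cell type apart. Ppp1r1b had an adjusted p of 0.089 to 0.13 without 2 h replicate 1 or 6 h replicate 1 or 3, and Sox9 of 0.059 without 6 h replicate 3. The endothelial list held 1 rise (Kdr; adjusted p = 0.049, but 0.095 to 0.19 without any array but 2 h replicate 3) and the fall of Slco1a4. Gfap, the astrocyte filament, read 1.75, 1.83 and 2.12 at 2 h and 2.10, 2.41 and 2.65 at 6 h and did not pass (adjusted p = 0.15). Ttr, a transthyretin gene made by choroid plexus, varied widely within groups, with -1.98, -1.62 and 3.92 at 2 h and -2.30, 4.37 and 4.03 at 6 h.

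**Figure D4:**
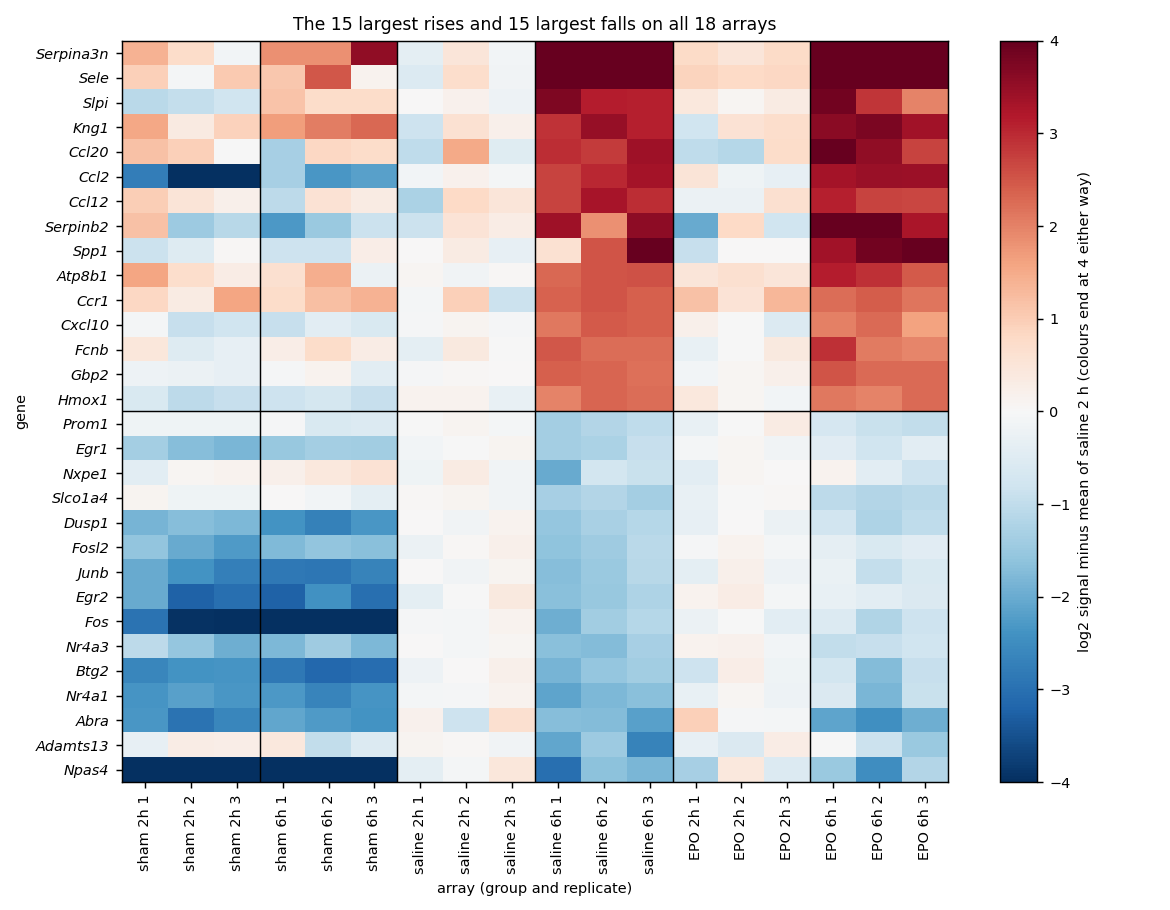
Log2 signal of the 15 largest rises (upper block) and 15 largest falls (lower block) on all 18 arrays (columns, by group and replicate), as the difference from the mean of the 3 saline arrays at 2 h; colours end at 4 in either direction. The rises are red on all 3 saline arrays at 6 h, and the immediate-early genes are lower there than at 2 h.

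To see how much of the change accompanied the passing of time after surgery, the same hours were compared in sham rats. In sham 135 probes changed (0.471%), and 40 to 59 did so without any 1 of the 6 sham arrays. Of the 1097 genes called in saline-treated ischemia, 39 were called with the same sign in sham (3.56% of the saline calls and 48.8% of the 80 sham calls) and 5 with the opposite sign, and 68.3% had the same sign against 62.8% of all genes. Slpi rose in sham as well (1.82, adjusted p = 0.037, against 3.34 in saline-treated ischemia), and Klf2 fell (-1.08 against -0.80). Testing the difference itself, the change in saline-treated ischemia differed from that in sham for 400 probes (1.40%), 245 more positive and 155 more negative, or by gene 149 (1.20%) and 86 (0.692%). The count was 236, 231, 238 and 203 without saline 2 h replicates 1 and 3 and 6 h replicates 2 and 3, and 223 without sham 6 h replicate 3. The difference was 5.30 ± 0.72 for Sele, 4.66 ± 0.96 for Serpina3n, 3.59 ± 0.72 for Ccl12, 2.71 ± 0.51 for Atp8b1 and 2.62 ± 0.32 for Trib3. On the other side it was -2.25 ± 0.48 for Abra, -1.71 ± 0.34 for Nr4a1, -1.65 ± 0.24 for Fosl2, -1.44 ± 0.23 for Neurod6 and -1.42 ± 0.27 for Nr4a3. Kcnv1 and Neurod6 fell in saline-treated ischemia while their sham means were higher at 6 h, by 0.50 (adjusted p = 0.0051) and by 0.60 (adjusted p = 0.16, not past the test). Of the list members, 6 of 25 immediate-early factors and 3 of 47 ion channels had a more negative change than in sham, against 0.692% of all genes. A more positive change was called for 7 of 30 apoptosis and p53 genes, 5 of 25 matrix genes and 4 of 27 interferon genes, against 1.20%. In these lists, only 1 immediate-early factor was called in the other direction.

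Rats with MCAO given EPO, which share no array with the saline rats, were compared over the same hours. Both comparisons used the same estimate of each probe's spread, so their calls are not independent. There 3236 probes changed (11.3%), 1313 higher (4.58%) and 1923 lower (6.71%), and 1868, 1894 and 1943 did so without EPO 6 h replicate 1, 2 h replicate 2 and 6 h replicate 2. By gene, 720 rose (5.79%) and 1004 fell (8.07%). Of these, 834 were called in both with the same sign and 0 with opposite signs, 76.0% of the 1097 saline calls and 48.4% of the 1724 EPO calls. Of the saline calls, 99.6% had the same sign with EPO, against 68.6% of all genes, with median rises of 0.52 and 0.50 and median falls of -0.40 and -0.37. Sele rose by 5.22 with EPO (5.90 with saline), Serpina3n by 4.97 (6.38), Ccl2 by 3.39 (3.02) and Hspb1 by 1.87 (1.97). Several immediate-early factors, and Arc of the activity-regulated list, were nearer to no change in the EPO means. Fosl2 was at -0.47 (-1.37 with saline), Egr4 at -0.20 (-1.17), Junb at -0.48 (-1.43) and Arc at 0.19 (-1.05). The median of the immediate-early list was -0.20 (-0.63). Of its 25 genes, 4 rose and 4 fell with EPO, against 1 and 14 with saline. The test of the saline change minus the EPO change called 0 of 28647 probes in limma, with 668 at an unadjusted p under 0.05, and 1 probe when saline 2 h replicate 3 was left out. Among the 3 genes of smallest unadjusted p on each side were Fosl2 (-0.90) and Arhgap45 (-0.35) on the negative side and Cluap1 (0.51), C10h5orf15 (1.16) and Sephs2 (0.32) on the positive side.

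**Figure D5:**
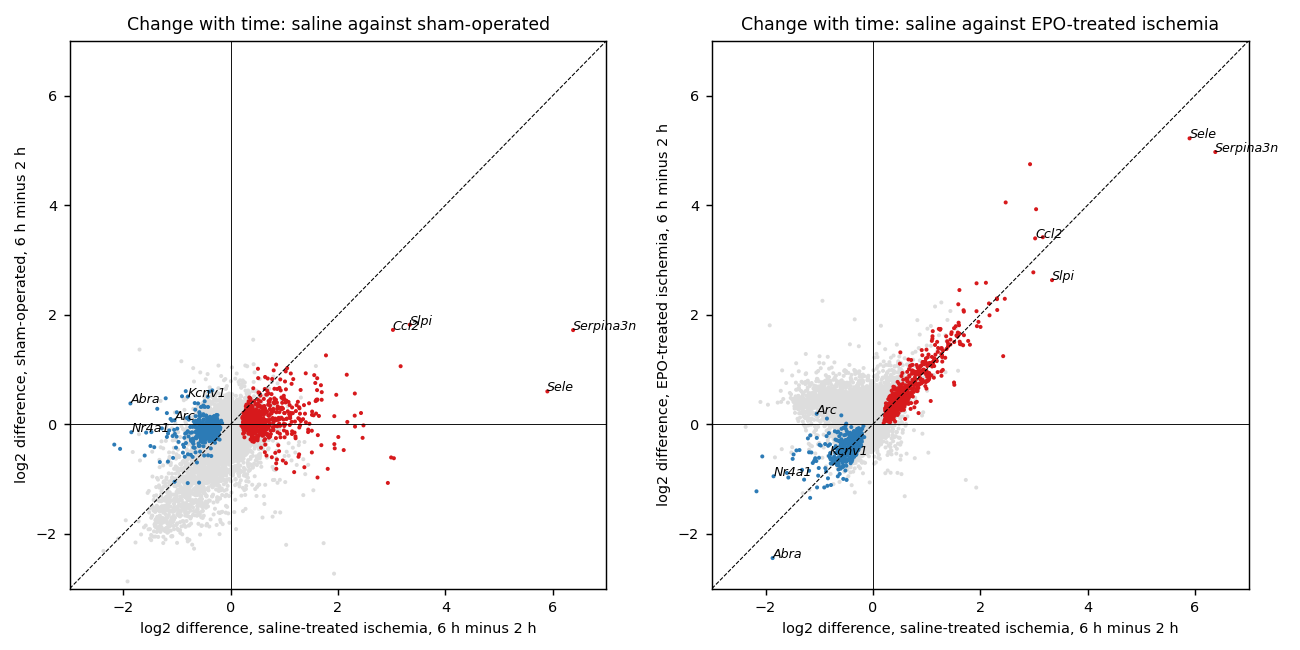
Log2 change from 2 h to 6 h in saline-treated ischemia (horizontal axes) against the change in sham (left) and in EPO-treated ischemia (right) for each of the 12436 genes; red genes rose and blue genes fell with saline, and the dashed line marks equal change. Against sham most called genes lie near the horizontal line of no change, and against EPO 99.6% of them keep their sign.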

How the data were processed

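Total RNA of 18 cortex samples was labelled with Cy3 and hybridized to 1-colour Agilent arrays, and spots were read with Agilent Feature Extraction 9.1.1.1, per the submitters' processing notes. The deposited scanner files hold the intensity of each spot, which per the file headers is already background-subtracted and detrended within the array but not scaled between arrays. The deposited value table holds log2 of this processed signal, averaged over the spots of a probe and unscaled: the largest difference from the scanner values was 5.15e-14. It served as an alternative.

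Control spots and outlier-flagged spots were left out, spots of a probe were averaged on the log2 scale, and each array's 75th percentile was subtracted. Of 41012 probes, the 28647 well above background on all arrays of at least 1 group were tested with limma 3.58.1 in R 4.3.3: 1 mean per group over 18 arrays, 12 residual degrees of freedom, two-sided, Benjamini-Hochberg adjustment at 0.05. Probes were named through RefSeq, 10735 by accession, 5571 by symbol and 3729 by synonym, and 20977 stayed unnamed. The code was tested on simulated data. List members were given as counts and medians, with no set test.

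Genes named were the 15 largest rises and 15 largest falls among called genes whose arrays do not overlap, up to 4 members of smallest p per gene list and cell type, the 5 largest rises and falls in the difference from sham and the 3 of smallest p on each side in the difference from EPO, and a panel of 26 genes. Other genes named to account for a count were chosen after their values were seen. A few genes chosen this way are not reported here. The members and lists were chosen with earlier results of these data known. Alternatives covered scaling, background correction, the filter on dim probes, saturated spots, the variance model, replicate number, slide, spike-in slope, the arrays fitted and each array left out.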

Additional observations from a re-analysis of the deposited data

Results flagged for a closer look

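The change from 2 h to 6 h was tested for a difference between saline-treated ischemia and sham, and 400 probes passed in limma. The genes with the largest differences on the log2 scale (saline change minus sham change) were Sele at 5.30, Serpina3n at 4.66, Ccl12 at 3.595, Atp8b1 at 2.71 and Trib3 at 2.62 on the positive side. On the negative side they were Abra at -2.25, Nr4a1 at -1.71, Fosl2 at -1.65, Neurod6 at -1.44 and Nr4a3 at -1.42. Sele, Ccl12 and Atp8b1 were not well above background on any sham array at 2 h, so that the sizes of their differences rest on dim values. Sham and saline rats differ in both the occlusion and the saline, and these cannot be told apart here.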

How the results depend on the processing

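No called named gene reversed its sign: over 130 called named genes, 0 of 2845 alternative values were reversed and 434 lost the call, 93 genes kept it whichever array was left out, and 8 kept it in every alternative. The count of probes changed in saline-treated ischemia (2064) was 1098 to 1479 with 1 array left out, 1089 without scaling between arrays, 1214 after centring on the median, 1351 with no filter on dim probes, 1052 with slide as a fixed block, 25 without the steep arrays and 381 in a fit of the 6 saline arrays alone. In sham (135) it was 40 to 59 with 1 array left out, 25 without scaling, 60 with no filter, 212 with probes above background on all arrays, 694 with array weights, 1 and 219 with slide as a fixed and a random block, 87 with the slope as a covariate, and 0 without the steep arrays and 0 in a fit of the sham arrays alone. In EPO-treated ischemia (3236) it was 1868 to 3366 with 1 array left out, 1227 without scaling, 2142 after centring, 8534 with array weights, 1129 without the steep arrays and 210 in a fit of the EPO arrays alone. For the saline change minus the sham change (400) it was 203 to 320 with 1 array left out, 230 without scaling, 235 after centring, 225 with no filter, 921 with array weights, 730 with slide as a random block and 0 without the steep arrays. For the saline change minus the EPO change it was 0 to 1 with 1 array left out. Fits of fewer arrays have fewer residual degrees of freedom; the cause of the other shifts was not tested. A lone array left in a group was assumed to vary like the other groups.

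The replicate numbers were checked for pairing. In the saline groups same-numbered arrays had correlated deviations of 0.528, 0.878 and -0.576. The sign followed the spike-in slope class. Arrays of the same class correlated positively also where their numbers differed, with 0.820 for 2 h replicate 1 and 6 h replicate 3. All pairs of different class were negative. The check therefore cannot tell whether the numbers pair the samples. With the replicate block, 1822 probes were called in saline-treated ischemia, 75 in sham, 2969 with EPO and 307 in the saline change minus the sham change.

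Some genes that did not pass the test reversed the sign of their differences. Without the steep arrays, Adora2a was at -0.01281, Bdnf at -0.07122, Cd3e at 0.01259, Gad1 at -0.07249, Mog at -0.01621, Pecam1 at -0.1323, Penk at -0.002874 and Ptgds at 0.007645. Cd79b was at 0.1509 with the slope class as a block and Pecam1 ran from -0.09153 to 0.7758 with 1 array left out. Rbfox3 was at 0.04634 without scaling, 0.005962 with quantile normalization, 0.04235 with slide as a fixed block and -0.07885 to 0.001139 with 1 array left out. With 3 arrays a group, and a signal near background for several of the largest rises, the sizes of the changes are uncertain.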
